A study of Macaca mulatta with 16 samples.

Results

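The abundance profile of whole extraocular rectus muscle was taken from 8 of the 16 arrays of the series, those labelled as whole lateral rectus or whole medial rectus of adult rhesus macaques (Macaca mulatta). The lateral rectus turns the eye outward and the medial rectus turns it inward. Of these arrays, 4 were of the human type U133A and 4 of the human type U133B, with 2 arrays of each muscle on each type. They were pooled without a contrast, and all probe sets of a type except controls were ranked by mean intensity over its 4 arrays, with rank 1 the brightest. No treatment or genetic change is given for any group. RNA of whole muscle followed the manufacturer's standard protocol, per the labels, while the other 8 arrays held T7-amplified RNA of the orbital and global layers, the outer and inner parts of these muscles, which were partly labelled as laser microdissected. Nothing says that the arrays came from separate animals, so the spread between them may be technical. Array numbers only name the arrays.

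Extraocular muscles move the eye and keep it steady. They contract faster and resist fatigue better than most limb muscles, hold many mitochondria, and use an unusually wide set of sarcomeric myosins, including MYH13, a heavy chain found mainly in these muscles and in the larynx. In any striated muscle fibre, thick filaments of myosin slide along thin filaments of actin, tropomyosin and troponin, calcium from the sarcoplasmic reticulum starts the movement, and creatine kinase, glycolysis and mitochondria supply the ATP.

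A probe set is a group of short probes for 1 transcript region. Its intensity depends on the amount of RNA, on how strongly the probes bind, and on how well a human probe matches the macaque transcript. A rank is therefore the place of a probe set's signal, not a count of RNA molecules. U133A held 22215 ranked probe sets, of which 19065 carried 1 gene symbol, 1043 several and 2107 none. U133B held 22577, of which 15426 carried 1 symbol, 554 several and 6597 none. Among the 100 brightest, 74 on U133A and 72 on U133B carried 1 symbol and are named here, for 57 and 70 genes. The other members were 18 with several symbols and 8 with none on U133A, and 18 and 10 on U133B. The symbols of 55 of the 57 genes and 67 of the 70 genes were also in the macaque gene table.

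Whole rectus muscle on U133A was led by proteins of the contractile machinery, by enzymes of energy supply and by genes of the ribosome, EEF1A1 and TPT1. Of the 100 brightest probe sets, 15 belonged to the sarcomere list, 24 to the energy lists, 11 to named ribosomal proteins and 9 to the list of translation factors and TPT1, of which 5 were TPT1 and 4 EEF1A1. The same lists held 0.441%, 1.09%, 0.432% and 0.243% of all ranked probe sets. A further 2 members were calcium handling genes, which made up 0.131% of ranked probe sets, and 4 were matrix genes, which made up 0.455%. Intensities are given in kilounits (kU, the deposited value divided by 1000). The rank 100 probe set had a mean of 50.8 kU, against a median of 817 units over all probe sets. The rank 1 mean was 5.596 times the rank 100 mean.

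**Figure D1:**
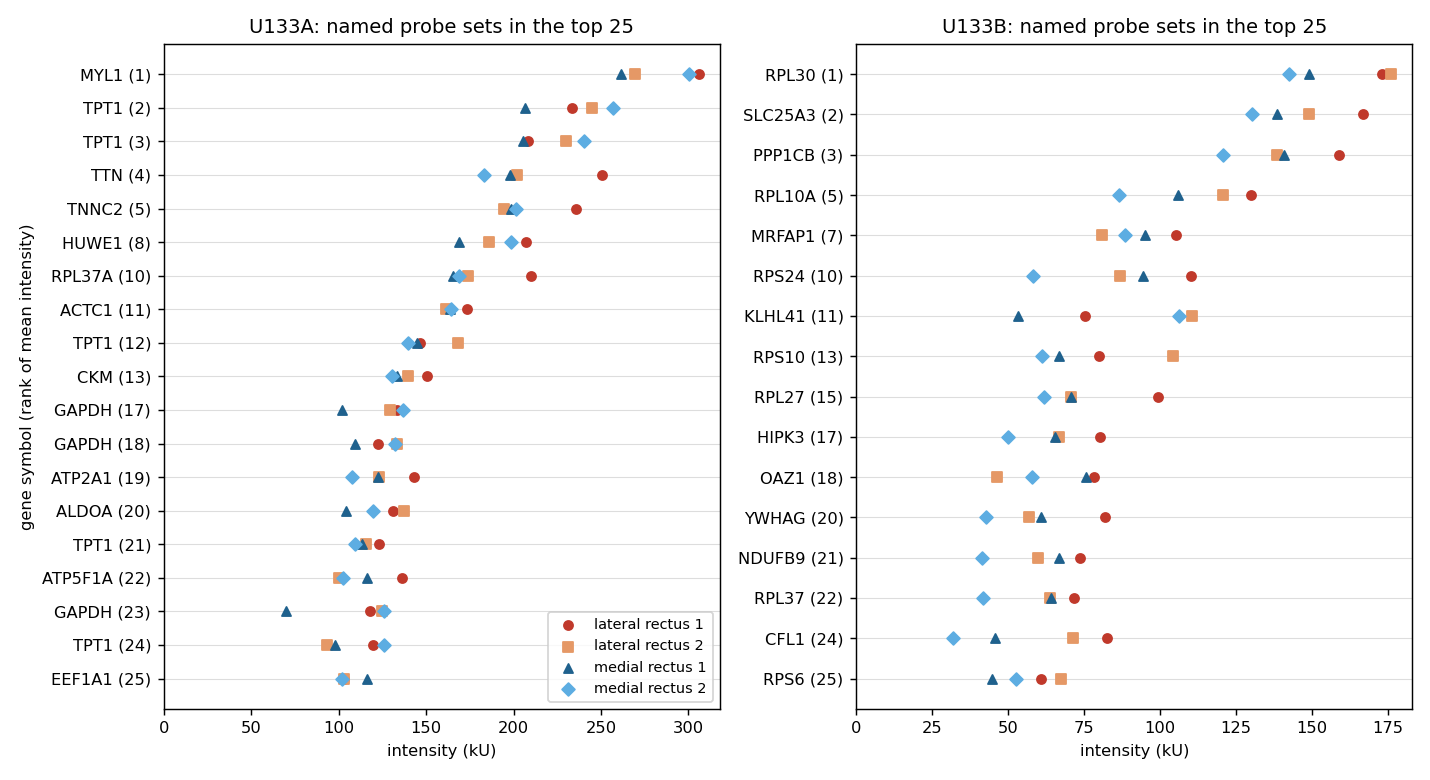
Intensity in kU (x axis, linear) of every probe set with 1 gene symbol among the 25 brightest (y axis, with rank) on U133A and U133B; each point is 1 array, with a colour and shape for each of the 4 arrays of a type. On U133A MYL1 lies between 262 and 306 kU on all arrays, and on U133B the array medial rectus 2 is lowest for many probe sets.

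In what follows, 4 values are given in the order lateral rectus 1, lateral rectus 2, medial rectus 1 and medial rectus 2, in kU. The brightest probe set of U133A was MYL1, the essential light chain of fast myosin, with 306, 269, 262 and 300.3. It was the brightest on each of the 4 arrays, and the muscles overlapped. Among the other thick filament genes in the top 100 were the fast regulatory light chain MYL11 at rank 32, with 110.1, 91.4, 91.6 and 73.0, and its slow counterpart MYL2 at rank 42, with 87.3, 63.3, 75.9 and 78.2. The values of these regulatory light chains overlapped between arrays, although MYL11 was the higher on 3 of the 4 arrays. The slow essential light chain MYL3 lay far below MYL1, at rank 1659 with 5.25, 5.71, 4.56 and 4.84.

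The myosin heavy chains form the motor of the thick filament. MYH2, the fast 2A heavy chain, stood at rank 26 with 109, 111, 88.7 and 104. MYH4, the fast 2B heavy chain, stood at rank 37 with 96.8, 92.8, 58.2 and 81.3. MYH13, the extraocular heavy chain, stood at rank 43 with 85.3, 71.4, 82.2 and 65.6. MYH2 was above MYH4 on each array, while MYH4 and MYH13 changed places between arrays. For MYH2 and MYH4 both lateral rectus arrays lay above both medial rectus arrays, and for MYH13 the muscles overlapped.

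The other sarcomeric heavy chains came well behind these 3. MYH3, the embryonic form, was at rank 316 with a mean of 19.6 ± 4.73 kU (SD, n = 4 arrays, as for all means below). MYH8, the perinatal form, was at rank 338 with 18.4 ± 5.77, and MYH1, the fast 2X form, at rank 415 with 15.3 ± 4.37. Their order was not stable, since MYH3 was the dimmest of these 3 on lateral rectus 1 and the brightest on medial rectus 2. The cardiac alpha form MYH6 was at rank 741 with 9.50 ± 1.56, and the slow form MYH7 at rank 1993 with 4.40 ± 1.26. MYH15, a slow-tonic type, had 1.95 ± 0.297 at rank 5280, and MYH7B, another slow-tonic type, had 0.110 ± 0.0268 at rank 20764 on U133A and 1.18 ± 0.404 at rank 9968 on U133B. These genes are alike in sequence, so signal may be shared between their probe sets. MYH7 was read by 1 probe set with 1 symbol, so no second value bears on its rank.

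The thin filament contributed 7 probe sets of 6 genes to the top 100. TNNC2, the calcium sensor of fast troponin, was at rank 5 with 236, 194, 199 and 202. ACTC1, cardiac alpha-actin, was at rank 11 with 173, 161, 164 and 164. ACTC1 had a ratio of highest to lowest array of 1.07, and the muscles overlapped for both genes. Also in the top 100 were TPM1 and TPM2, the alpha and beta tropomyosins, at ranks 31 and 39, the inhibitory fast troponin subunit TNNI2 at rank 36, and nebulin (NEB), which spans the thin filament, at rank 60. ACTA1, skeletal alpha-actin, was at rank 187 with 40.4, 25.7, 28.7 and 26.5, so the cardiac actin probe set was the brighter on every array, by 5.47-fold in the mean. The alpha-actins are nearly the same in their coding sequence, and each was read here by 1 probe set with 1 symbol.

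Titin (TTN), the giant spring that links the Z-disc to the M-band, was at rank 4 with 250.5, 202, 198 and 183, with both lateral rectus arrays above both medial rectus arrays. CRYAB, a small heat shock protein of the Z-disc, was at rank 91 with 47.6, 53.8, 57.3 and 52.1. The other Z-disc and M-band genes lay lower: the brightest of them were MYOZ1, which binds calcineurin at the Z-disc, at rank 156 and SMPX at rank 159. Of 60 sarcomere genes with a named probe set on U133A, 14 were in the top 100 and 39 in the top 1000. Their median rank was 530.5, taking the brightest probe set of each gene.

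Calcium handling was represented by ATP2A1, the fast calcium pump of the sarcoplasmic reticulum, at rank 19 with 143, 123, 122 and 108, and by CASQ1, which stores calcium there, at rank 84 with 51.3, 67.9, 57.5 and 37.2. CASQ1 was among the members with the widest range between arrays, with a ratio of highest to lowest of 1.83. PVALB, a cytosolic calcium buffer of fast fibres, was at rank 173 with 38.9, 31.5, 35.5 and 24.4. On U133B, sarcalumenin (SRL), a binding protein of the reticulum lumen, was at rank 80 with 34.2, 27.3, 25.8 and 15.8, and JPH1, which joins the reticulum to the T-tubule, at rank 137. Both muscles overlapped for PVALB and CASQ1.

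**Figure D2:**
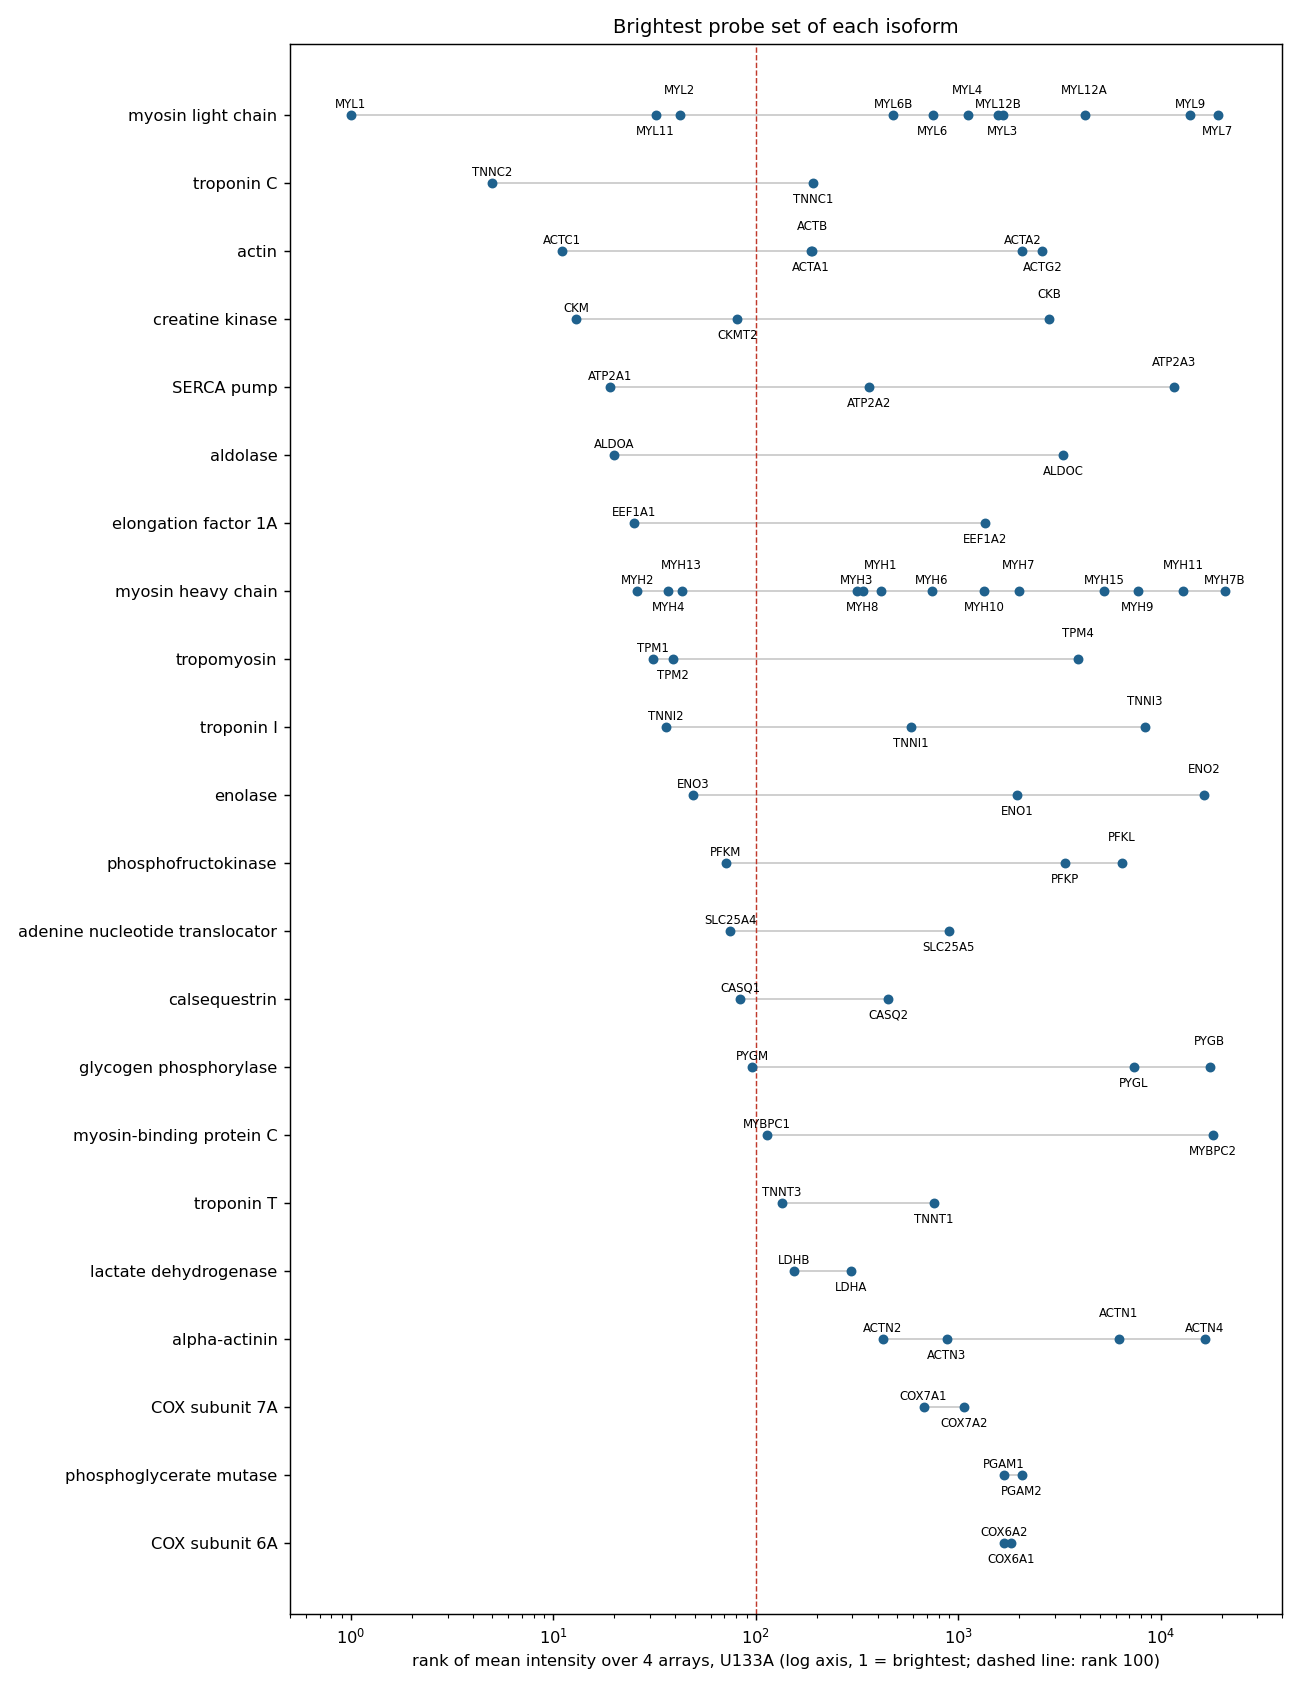
Rank of mean intensity on U133A (x axis, log scale, 1 is the brightest) for the brightest probe set of each gene in 22 isoform families (y axis); the dashed line marks rank 100. In 15 families the leading gene lies within the 100 brightest, and in most the next gene lies far to the right.

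Isoform families were compared by the brightest probe set of each gene on U133A. In 19 of 22 families the leading gene exceeded the next one on all 4 arrays. In 6 families the leading pair was a fast and a slow form, and the fast form led in 5: TNNC2 over TNNC1 by 7.03-fold, TNNI2 over TNNI1 by 7.18-fold, TNNT3 over TNNT1 by 4.48-fold, ATP2A1 over ATP2A2 by 7.07-fold and CASQ1 over CASQ2 by 3.79-fold. The exception was myosin-binding protein C, where the slow form MYBPC1 was at rank 114 with 47.4 ± 4.77 and the fast form MYBPC2 at rank 18086 with 0.226 ± 0.241. MYBPC2 was read by 1 probe set, and no other value bears on whether that probe set binds the macaque transcript. For the calcium pumps the order on U133B was the opposite, with ATP2A2 at rank 4986 and ATP2A1 at rank 20937. Neither was brighter there than the brightest of the genes of other organs given further on.

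Of 10 enzyme, respiratory chain and carrier families with a form typical of skeletal muscle, that form had the highest mean in 8, and it was above the next gene on all 4 arrays in 7. The form shared by heart and skeletal muscle counts here, and a form typical of heart alone does not. CKM, the muscle creatine kinase, was at rank 13 with 151, 139, 134 and 130.5, and the brain form CKB at rank 2805. ENO3, muscle enolase, had 16.7 times the intensity of ENO1, and PFKM, muscle phosphofructokinase, had 20.6 times that of PFKP. PYGM, muscle glycogen phosphorylase, was at rank 96 and the liver form PYGL at rank 7390, within the range of the genes of other organs given further on, so no ratio is given. The adenine nucleotide translocator SLC25A4, the heart and muscle form, led SLC25A5 by 7.005-fold, and COX7A1 led COX7A2 by 1.44-fold. COX6A2 and COX6A1, the muscle and liver forms of a cytochrome c oxidase subunit, did not differ beyond their spread, with 5.01 ± 0.260 and 4.70 ± 1.07 and each above the other on 2 arrays.

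The muscle form did not lead in 2 of these families. LDHB, the heart form of lactate dehydrogenase, was at rank 154 with 43.6, 28.3, 48.3 and 24.1, and LDHA, the muscle form, at rank 296 with 20.7, 20.6, 17.7 and 24.6. LDHB was the higher on 3 arrays, and on medial rectus 2 they were close. PGAM1 and PGAM2, the brain and muscle forms of phosphoglycerate mutase, had 5.03 ± 1.70 and 4.26 ± 0.465 and each led on 2 arrays. Outside these families, the elongation factor EEF1A1 had 17.9 times the intensity of EEF1A2, the form that adult muscle and brain are known for, though EEF1A1 has many near-identical copies in the genome.

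Energy supply filled 24 places of the top 100 with 19 genes. Glycolysis and glycogen use held 9 of them: GAPDH with 3 probe sets at ranks 17, 18 and 23, ALDOA, which splits fructose bisphosphate, at ranks 20 and 27, ENO3 at rank 49, PFKM at rank 71, UGP2, which makes the glucose donor for glycogen, at rank 85, and PYGM at rank 96. ENO3 with 77.1, 73.4, 76.2 and 70.0 and UGP2 with 56.0, 52.2, 55.0 and 49.9 were among the steadiest members, with ratios of highest to lowest of 1.10 and 1.12. GAPDH at rank 23 was among the least steady, with 118, 125, 70.1 and 126, medial rectus 1 being low.

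ATP synthase, the last step of oxidative phosphorylation, held 7 places with 5 genes. Its catalytic core subunit ATP5F1A was at rank 22 with 136, 100.5, 116 and 103, followed by ATP5F1C at ranks 58 and 78, ATP5F1B at rank 59, ATP5MC3 at rank 68 and ATP5MG at ranks 70 and 88. Of the 16 ATP synthase genes with a named probe set, 12 were in the top 1000. The mitochondrial membrane carriers held 4 places: the phosphate carrier SLC25A3 at rank 44, the porins VDAC3 and VDAC2 at ranks 52 and 53, and SLC25A4 at rank 75. VDAC3 had 74.8, 69.0, 72.3 and 64.9, and the muscles overlapped.

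The respiratory complexes upstream of ATP synthase held 1 place, COX7B of complex IV at rank 66 with 69.5, 56.0, 66.7 and 57.5. COX4I1 of the same complex was at rank 125 with 69.8, 23.9, 59.1 and 22.8, which is high on lateral rectus 1 and medial rectus 1 and low on the others. The brightest genes of complex I, III and II were NDUFB1 at rank 102, UQCRC1 at rank 288 and SDHC at rank 844. The cytosolic malate dehydrogenase MDH1, of the malate-aspartate shuttle, was at rank 33 with 91.0, 95.6, 79.5 and 95.5. Myoglobin (MB), the oxygen store of muscle, was at rank 281 with 33.2, 19.03, 18.8 and 15.2, and the brightest fatty acid oxidation gene, HADHB, was at rank 299. The list of transcripts of the mitochondrial genome had no named probe set on U133A, so these were not ranked there.

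CKM stood close to the top, and its mitochondrial partner CKMT2, which makes creatine phosphate from mitochondrial ATP, was at rank 81 with 60.3, 53.0, 61.5 and 45.0. CKM had both lateral rectus arrays above both medial rectus arrays, and CKMT2 overlapped.

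TPT1, EEF1A1 and ribosomal proteins filled the next block. TPT1, a growth-related protein abundant in many tissues, had 5 probe sets in the top 25, at ranks 2, 3, 12, 21 and 24, with means from 109 to 235. Its brightest had 233, 245, 207 and 257, with overlap between the muscles. EEF1A1, which brings aminoacyl-tRNA to the ribosome, had 4 probe sets at ranks 25, 29, 34 and 40. The 11 named ribosomal proteins were led by RPL37A at rank 10 with 210.0, 174, 166 and 169, RPL41 at rank 28 and RPS18 at rank 30. RPL7 at rank 51 was the steadiest named member of the top 100, with 70.1, 71.6, 74.1 and 72.9, whereas RPL23A at rank 47 had 112, 57.9, 63.8 and 64.6. A further 11 probe sets of the top 100 carried several symbols of which at least 1 was a ribosomal protein, and counting them gave 22 ribosomal members. Of 58 ribosomal protein genes with a named probe set, 48 were in the top 1000.

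Many of these transcripts have near-identical copies elsewhere in the genome. An ID ending in _x_at marks a probe set with probes that can bind more than 1 transcript, and 49 of the 100 brightest on U133A had one, against 10.9% of all ranked probe sets. On U133B the figures were 16 of 100 and 6.40%. The values of TPT1, EEF1A1, GAPDH and the ribosomal proteins are uncertain in this respect. So are those of HUWE1, ALDOA, GNAS, DCN, ATP5F1C and ATP5MG, whose named probe sets in the U133A top 100 all had such an ID. FTH1P5 at rank 72, with 64.1, 56.8, 53.3 and 57.7, is annotated as a pseudogene of the ferritin heavy chain, and its signal may come from the gene itself.

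**Figure D3:**
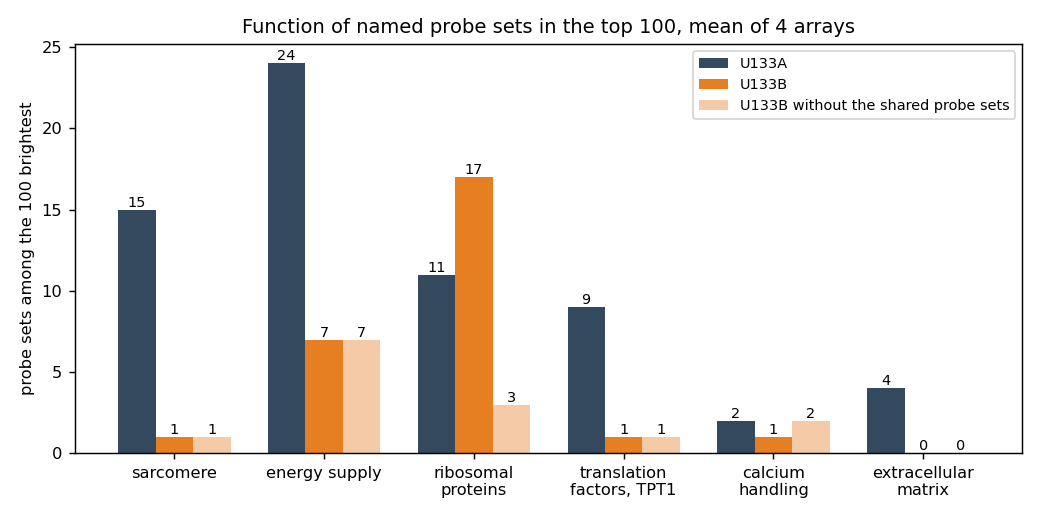
Number of probe sets with 1 gene symbol (y axis) in each group of lists (x axis; TPT1 is in the list of translation factors) among the 100 brightest of U133A, of U133B, and of U133B without the 100 probe sets that are on both types. Energy genes with 24 and sarcomere genes with 15 are the largest groups on U133A, and the 17 ribosomal proteins of U133B fall to 3 without the shared probe sets.

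A few members of the U133A top 100 belonged to none of these groups. GNAS, the alpha subunit of the stimulatory G protein, had 4 probe sets at ranks 41, 63, 65 and 79, with means from 55.9 to 76.6. ATP1B1, the beta subunit of the sodium pump, was at rank 62 with 60.8, 57.2, 67.0 and 74.3, and here both medial rectus arrays lay above both lateral rectus arrays. B2M, the light chain of class I antigen presenting molecules, was at rank 86. UBB, a polyubiquitin gene, was at rank 95 by the mean with 18.8, 30.0, 20.9 and 137: its rank was 14 on medial rectus 2 and 195 to 345 on the others, so its place rested on 1 array. Without medial rectus 2 it ranked 263.

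HUWE1, a large ubiquitin ligase, illustrated how far a rank depends on the probe set. Its brightest probe set, whose ID ends in _x_at, was at rank 8 with 207, 186, 169 and 199. The other HUWE1 probe sets of U133A were at ranks 728, 16394 and 19448, and that of U133B at rank 12421. RPL37A had further probe sets at ranks 1238 and 13717, and TTN had none above rank 926 on U133B. Of the 57 genes named in the top 100 of U133A, 24 had more than 1 probe set on this type. In 10 of them the dimmest was no brighter than the brightest reference gene of liver, pancreas, photoreceptors or lens (2121 units), so no ratio is given. In the other 14 the brightest exceeded the dimmest by 1.14-fold to 23.8-fold. On U133B, where the brightest reference gene was at 5682 units, these were 22 of 28 genes, and 6 genes with 1.03-fold to 5.26-fold.

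The U133B array type holds fewer probe sets of muscle proteins, and its top 100 had fewer of them. The sarcomere lists made up 0.133% of its ranked probe sets, the energy lists 0.332%, ribosomal proteins 0.186% and the nonmuscle cytoskeleton 0.0310%. Its top 100 had 17 probe sets of ribosomal proteins, 7 of energy genes, 3 of the nonmuscle cytoskeleton and 1 sarcomere gene, and 39 named members were in none of the lists. The rank 100 mean was 22.0 kU, against a median of 990 over all probe sets. The brightest was RPL30, a ribosomal protein, with 173, 176, 149 and 142, followed by SLC25A3 with 167, 149, 138 and 130.3. For both, the lateral rectus arrays lay above the medial rectus arrays.

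Part of this came from probe sets placed on both array types. There were 100 such probe sets, 0.443% of U133B, and 39 of them were in its top 100, including 16 of the 17 ribosomal ones, against 3 in the top 100 of U133A. Their order was nearly the same on both types (Spearman rho 0.985 over the 100 probe sets; the labels do not say whether the arrays of both types held the same RNA). Their mean on U133B was the higher for 97 of 100, with a median ratio of 1.74 and a range from 0.575 for ANAPC5 to 2.56 for SPAG7. Levels on one type are thus not on the scale of the other. Without these probe sets, 22477 were ranked, the rank 100 mean was 17.3 kU, and the top 100 held 3 ribosomal proteins, 7 energy genes, 1 sarcomere gene and 2 calcium handling genes. These lists made up 0.102%, 0.325%, 0.133% and 0.0623% of the probe sets ranked there.

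**Figure D4:**
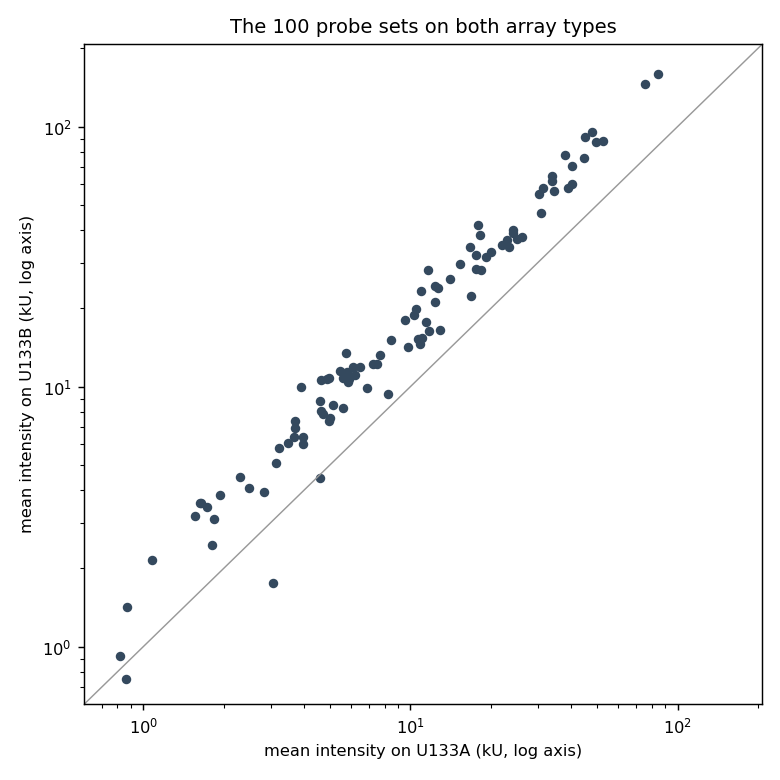
Mean intensity over 4 arrays on U133A (x axis) and U133B (y axis), in kU on log axes, for the 100 probe sets present on both array types; the line marks equal values. Of the 100 points, 97 lie above the line, and the median ratio is 1.74.

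Among the probe sets of U133B alone, PPP1CB, a catalytic subunit of protein phosphatase 1, was the brightest, at rank 3 with 159, 138, 141 and 121. Its U133A probe sets were at ranks 2480, 2539 and 5407. MRFAP1 was at rank 7. KLHL41, a kelch protein needed for the sarcomere, was at rank 11 with 75.2, 110.5, 53.2 and 106, high on lateral rectus 2 and medial rectus 2, so the muscles overlapped. HIPK3, a kinase, was at rank 17 with 80.2, 66.7, 65.3 and 49.8, and its U133A probe sets were at ranks 5573 to 8272. Both lateral rectus arrays of HIPK3 lay above both medial rectus arrays, but lateral rectus 2 and medial rectus 1 were close.

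The energy genes of U133B were SLC25A3, NDUFB9 and NDUFA12 of complex I at ranks 21 and 34, CHCHD10 of the mitochondrial intermembrane space at rank 43, ATP5MK of ATP synthase at rank 44, ADSS1, the muscle adenylosuccinate synthase, at rank 73, and COX4I1 at rank 74. NDUFB9 had 73.7, 59.7, 66.7 and 41.5. CHCHD10 had 47.4, 32.9, 60.3 and 17.4 and was among the least steady members, with a ratio of highest to lowest of 3.46. In both, medial rectus 2 was lowest.

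The cytoskeleton was present with ACTB, nonmuscle beta-actin, at rank 29, and the actin-severing cofilins CFL1 and CFL2, of which CFL2 is the muscle form, at ranks 24 and 36. CFL1 had 82.6, 71.4, 45.7 and 31.9, and CFL2 had 53.1, 37.8, 46.7 and 35.2. FBXO32, the atrophy-related ubiquitin ligase, was at rank 65 with 37.2, 35.5, 30.6 and 25.2. Its second probe set was just outside the top 100, at rank 102. The dimmest FBXO32 probe set of U133B had a mean of 519 units, below the brightest reference gene there.

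Several other genes known from muscle were in the U133B top 100 but in none of the lists, and they were picked after their values were seen. SMDT1, a regulator of the mitochondrial calcium uniporter, was at rank 40 with 43.4, 42.5, 36.0 and 37.5. RBM24, a splicing factor of striated muscle, was at rank 45, and COQ10A, a coenzyme Q binding protein, at rank 62. FNDC5, the precursor of the secreted peptide irisin, was at rank 64 with 39.2, 32.1, 33.5 and 24.2. TMEM38A, a potassium channel of the sarcoplasmic reticulum, was at rank 83 with 24.4, 24.03, 30.2 and 22.5. KCNMA1, the large-conductance calcium-activated potassium channel, was at rank 97 on U133B and had a probe set at rank 128 on U133A. In all of these the spread between arrays was as wide as the distance to many neighbouring ranks.

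The limit at rank 100 separates nothing in the values. On U133A the last named members were PYGM with a mean of 51.7 and DCN with 51.5, and the first named probe sets outside were NDUFB1 with 50.2, SKP1, a ubiquitin ligase subunit, with 49.8, and RPL38 with 49.7. On U133B the last were PAIP2 with 23.0, KCNMA1 with 22.9 and SPTBN1, a spectrin, with 22.7, and the first outside were CXXC5 with 21.9, FBXO32 with 21.7, ANTXR1 with 21.6, MRPL14 with 21.5 and RHOA with 21.1.

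The top of the profile was nevertheless mostly the same from array to array. Of the 100 brightest probe sets of U133A, 79 were in the top 100 of each of the 4 arrays, and 99 were within rank 200 on each of them, the exception being UBB. On U133B these numbers were 74 and 98, the exceptions being RAB12, a small GTPase of membrane traffic, and NFIX, a transcription factor of muscle development. Over any array, 127 probe sets of U133A and 128 of U133B reached the top 100 at least once. Of the 25 brightest, 20 on U133A and 18 on U133B were in the top 25 of each array. MYL1 on U133A and RPL30 on U133B held rank 1 on every array of their type.

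**Figure D5:**
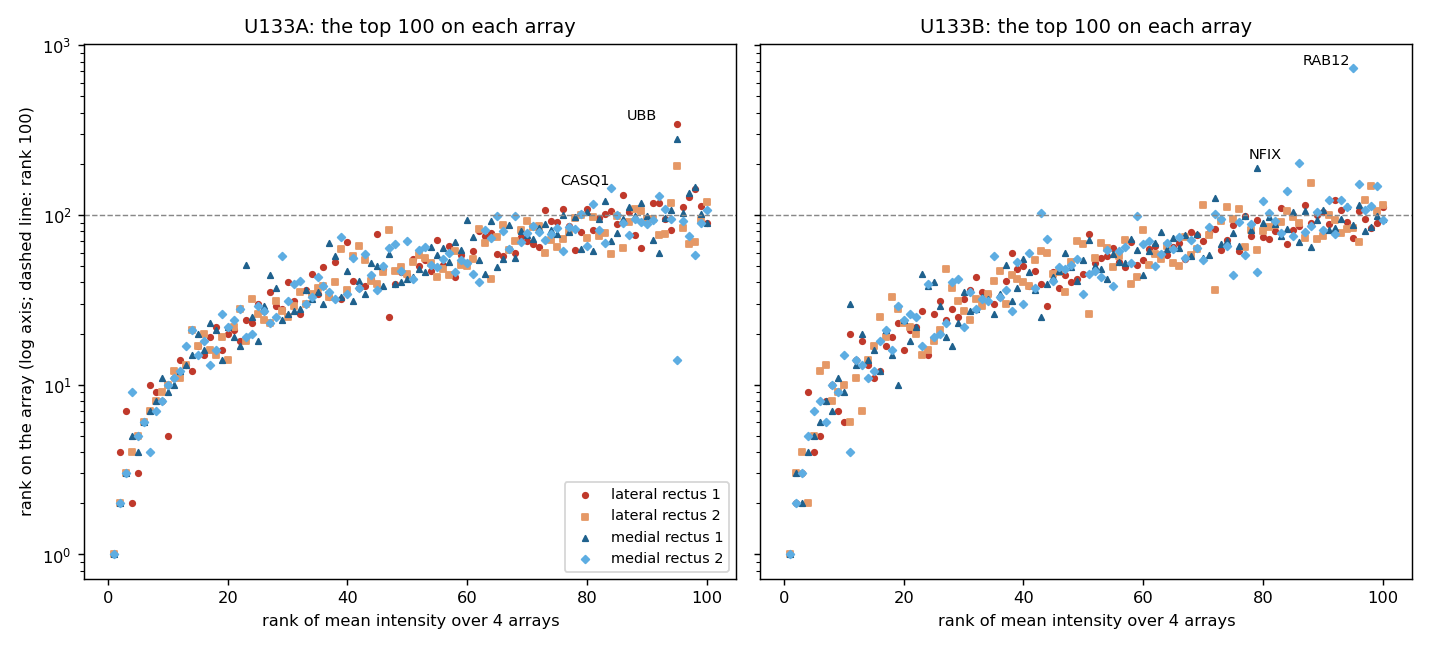
Rank on each single array (y axis, log scale) against rank of the mean over 4 arrays (x axis) for the 100 brightest probe sets of U133A and U133B, with a colour and shape for each array; dashed lines mark rank 100. Most points follow the mean rank, and UBB on U133A and RAB12 on U133B stand apart on single arrays.

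The ratio of the highest to the lowest array was 1.27 in the median member of the U133A top 100 and 2.03 over all its ranked probe sets. It was 1.68 and 2.61 on U133B. By rank, the median ratio on U133A was 1.23 in ranks 1 to 25, 1.29 in ranks 26 to 100, 1.34 in ranks 101 to 1000, 1.47 in ranks 1001 to 5000 and 2.45 below that. On U133B it was 1.61, 1.68, 1.56, 1.73 and 3.14 over the same steps, the last one again being the dimmest probe sets. The ratio exceeded 2 in 1 member of the U133A top 100, UBB, and in 19 members of the U133B top 100.

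The steadiest named members of the U133A top 100 were RPL7 with a ratio of 1.06, ACTC1 with 1.07, ENO3 with 1.10, UGP2 with 1.12 and the rank 21 probe set of TPT1 with 1.13. The least steady were UBB with 7.26, RPL23A with 1.93, CASQ1 with 1.83, GAPDH at rank 23 with 1.80 and TPM2 with 1.67. On U133B the steadiest were SCARB2, a lysosomal membrane protein, with 1.16, PPTC7, a mitochondrial phosphatase, with 1.20, SMDT1 with 1.21, RPL30 with 1.24 and SLC25A3 with 1.28. The least steady were RAB12 with 5.33, CHCHD10 with 3.46, NFIX with 2.66, CFL1 with 2.59 and RPL11 with 2.53. RAB12 had 34.3, 25.96, 26.1 and 6.42, so that medial rectus 2 alone was low, at rank 730.

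Over all ranked probe sets, Spearman's rho between arrays was 0.869 to 0.895 on U133A and 0.747 to 0.812 on U133B, where the dim probe sets weigh as much as the bright ones. On both types the highest value was between lateral rectus 1 and medial rectus 1, which are different muscles. Any pair of arrays shared 83 to 90 of their top 100 on U133A and 82 to 94 on U133B. Summed over the members, the top 100 took 17.3% to 18.7% of all intensity on the U133A arrays. On U133B it took 11.4% to 12.5% on 3 arrays and 9.19% on medial rectus 2, which was the lowest array for 81 of the 100 members. The part of that array in the U133B values of medial rectus was not tested.

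Within the top 100 of U133A, 23 members had both lateral rectus arrays above both medial rectus arrays, where 12.9% of all ranked probe sets did, and 2 members had the opposite order, where 17.2% did. On U133B these were 36 members against 14.5%, and 1 member against 17.2%. The sizes were small: the means of the muscles differed by more than 1.5-fold for 1 member on U133A, UBB, and for 5 on U133B. On both types lateral rectus 1 was the highest array most often, for 45 of 100 members on U133A and 59 on U133B. On U133A medial rectus 1 was the lowest array for 42 of 100 members. Lateral rectus 1 and, on U133B, medial rectus 2 therefore move with this order, and their part in it was not tested. The median over all ranked probe sets was lower on the lateral rectus arrays, although all arrays have nearly the same trimmed mean. In the array order used above it was 788, 802, 816 and 852 units on U133A and 909, 957, 962 and 998 on U133B. The part of this array-wide shift was not tested either.

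The markers of muscle fibres were all bright: CKM at rank 13, MYH2 at rank 26, MYH13 at rank 43 and ACTA1 at rank 187. Summed over the 4 markers, the arrays of lateral rectus had 385.0 and 347 kU and those of medial rectus 333 and 327 kU. Other cells contributed to the profile of the whole muscle, and in bulk RNA fewer cells of a type and less RNA per cell cannot be told apart. The clearest were fibroblast genes of the matrix, with 4 of 5 markers in the top 1000: the proteoglycan decorin (DCN) at rank 55 with 63.6, 77.1, 65.8 and 69.5, the collagens COL1A2 at rank 73 with 50.7, 67.1, 52.2 and 61.2, COL3A1 at rank 82 and COL1A1 at rank 145, and lumican (LUM) at rank 9586. The 5 together summed to 201, 259.9, 204 and 219 kU, highest on lateral rectus 2, and their part in the other values of that array was not tested.

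Markers of the other cell types were dimmer. Of the smooth muscle and pericyte markers, RGS5 was at rank 426 with 17.7, 14.3, 17.5 and 9.32, ACTA2 at rank 2074 and TAGLN at rank 4577 on U133A and 598 on U133B, while CNN1 and MYH11 were beyond rank 10000 on U133A. Of the endothelial markers, VWF was at rank 654 with 11.4, 10.7, 10.6 and 9.44, AQP1 at rank 1235, PECAM1 at rank 2674, CDH5 at rank 2734 and CLDN5 at rank 16253. Haemoglobin beta (HBB), of red blood cells, was at rank 308 with 32.9, 25.6, 12.9 and 8.91, both lateral rectus arrays lying above both medial ones. Of the nerve markers, MBP, a myelin protein, was at rank 785 and NEFL, a neurofilament, at rank 11634.

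Apart from FABP4, the markers of fat, immune cells, lacrimal gland and retina lay within the range of reference genes of other organs. The fat cell marker FABP4, also made by endothelium, was at rank 2933 on U133A with 3193 units, above the highest reference gene there, and ADIPOQ and PLIN1 were at ranks 16430 and 16501. The immune markers CD163, LYZ, PTPRC and CD14 were at ranks 7236, 13698, 15363 and 19794. The lacrimal markers LCN1 and LTF were at ranks 11652 and 19158 on U133A and LACRT at rank 15686 on U133B, and the photoreceptor markers SAG and GNAT1 at ranks 14532 and 16274. For reference, 20 genes of liver and pancreas had a median of 344 units and a best rank of 4810 (FGA), and 18 genes of photoreceptors and lens had a median of 485 units and a best rank of 8007 (GUCA1A). None of the genes of either list was in the top 1000 on U133A. FGA reached rank 1012 on U133B, so that a high rank there does not by itself show a muscle transcript.

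The layers served only as a comparison of ranks. When the 4 layer arrays of each type were ranked in the same way, 83 of the 100 brightest probe sets of whole muscle were also among the layers' 100 brightest on U133A, and 72 on U133B. Within the layers' top 200 were 94 and 88. MYL1 was at rank 3 and the brightest TPT1 probe set at rank 1 in the layers. The layers differ from whole muscle both in what was dissected and in the T7 amplification of the RNA, and these cannot be told apart.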

How the data were processed

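RNA of whole lateral and medial rectus was measured on 8 arrays. The deposited tables give a linear intensity for each probe set on each array, scaled array by array as the values show (2% trimmed mean 1500.2 to 1500.4 on each array); the software and detection calls are not given in the sources used here, and values are shown as deposited. The 68 AFFX control probe sets of each type were left out, U133A and U133B were ranked separately by the mean of 4 arrays, and symbols came from the platform annotation. Members and the 35 gene lists were chosen with earlier results of these data known. Named genes were single-symbol probe sets of the top 25, up to 4 brightest members of each list, isoform family members, the 5 steadiest and 5 least steady members, ranks 96 to 105 and cell type markers. No difference between groups was tested, and Dixon's criterion was applied to single arrays; 2 arrays a muscle limit the precision of every value. The ranking was also run on simulated data in which a known set was placed far above all other probe sets. Its recovery was built in, so that run does not bear on the order near rank 100. Python 3.11.15, pandas 2.3.3, numpy and matplotlib were used. Alternatives were quantile normalization, the median, mean ranks, each muscle alone, each array left out, the top 50 or 200, 1 probe set per gene, and 3 chosen after seeing the data.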

Additional observations from a re-analysis of the deposited data

Results flagged for a closer look

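Single arrays were compared with the other 3 of their type for 58 named probe sets on U133A and 35 on U133B. In 8 of them, 1 array lay far from the others by Dixon's criterion for 4 samples, where chance alone marks about 1 set of values in 20. The compared probe sets included the 5 steadiest and 5 least steady members of each type, picked by the spread of these same values. UBB, RPL23A and GAPDH at rank 23 were among the least steady, so the 8 cannot be set against that chance rate. UBB was at 136880 units on medial rectus 2 against 18847 to 30039 on the others. RPL23A was at 111756 units on lateral rectus 1 against 57904 to 64626. COL1A1 was at 55642 units on lateral rectus 2 against 31410 to 33644. On medial rectus 1, GAPDH at rank 23 was at 70057 units against 117896 to 125851, and EEF1A1 at rank 25 was at 115990.0 against 102046 to 103132. Among dim markers, NEFL was at 114.4 units on lateral rectus 1 against 943 to 1001, PLIN1 at 428 on medial rectus 1 against 269 to 287, and MYH11 on U133B at 1428 on medial rectus 1 against 350.1 to 426.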

How the results depend on the processing

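The shares of sarcomere, energy, ribosomal and translation genes in the top 100 of both array types were recomputed under each alternative, and 100 of 110 values stayed within 1.5 times of those reported. On U133A, sarcomere genes made up 24% and the list of translation factors and TPT1 18% of the top 50. With each gene counted once, ribosomal proteins made up 22% and translation factors 5%, and translation factors made up 3% without probe sets whose ID ends in _x_at. Counting probe sets with a ribosomal symbol among several, chosen after seeing the data like the _x_at and shared probe set alternatives, also gave 22% ribosomal members on U133A. On U133B, sarcomere genes and translation factors each made up 2% of the top 50, ribosomal proteins 11% of the top 200, and ribosomal proteins 3% without the probe sets on both array types.

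The lowest rho between arrays was 0.799 on U133A and 0.603 on U133B among probe sets at or above the median. With each array left out in turn it ranged from 0.869 to 0.887 on U133A and from 0.747 to 0.779 on U133B, and on both the highest value was that without medial rectus 2. Of 490 ranks of 52 named probe sets, 451 moved by no more than their SD over arrays. Most of these alternatives reuse the same 4 arrays that give the SD. Small shifts were therefore largely fixed in advance and do not show how ranks would hold on other arrays. In 3 isoform pairs the order turned. The log2 ratio of TPM1 over TPM2 was -0.65 with the median over the probe sets of each gene. That of PGAM1 over PGAM2 ranged from -0.054 to 0.42, and that of COX6A2 over COX6A1 from -0.037 to 0.24, with each array left out in turn. The cause was not tested. No paired analysis was possible because the muscles share fewer than 2 array numbers in the labels: on U133A the lateral rectus titles carry none, and on U133B only number 1 is in both. With 4 arrays and no detection calls, dim probe sets cannot be told from background.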

Other observations

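Other lists held bright genes below the top 100. Nuclear proteins were led on U133A by SET, a histone chaperone, at rank 134 with 44.8, 40.2, 38.1 and 44.9 kU on lateral rectus 1, lateral rectus 2, medial rectus 1 and medial rectus 2, and by HMGN2 and HMGB1, which bind nucleosomes and DNA, at ranks 169 and 170. Their median gene rank was 318, over 12 genes. On U133B the nuclear long noncoding RNA MALAT1 was at rank 206 with 13.69, 14.16, 13.50 and 14.04 kU, a highest over lowest array of 1.05 where the median in ranks 101 to 1000 was 1.56. Of the transcripts of the mitochondrial genome, ND4 was at rank 1133 on U133B with 5.50, 5.96, 5.38 and 4.72 kU, ATP6 at rank 7708 and COX3 at rank 18952. By their means all of these lay below the reference gene FGA, at rank 1012 there. Their ranks therefore do not show how abundant these transcripts are.

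No gene of the chaperone and antioxidant lists had a probe set with 1 symbol in the U133A top 100. The 18 members with several symbols and the 8 with none were placed in no list. The small heat shock protein CRYAB, counted with the Z-disc, was at rank 91. FTH1P5 at rank 72, whose signal may come from the ferritin heavy chain gene, was in no list. The leading genes of the chaperone list were PPIA at rank 257 and HSP90AB1 at rank 259, which was at rank 51 on U133B, and of 21 chaperone genes 6 were in the top 1000. The selenoprotein SELENOW at rank 291 and the ferritin light chain FTL at rank 348 led the antioxidant and iron list, in which 5 of 20 genes were in the top 1000.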
